A study of Spirodela polyrhiza with 12 samples.

Results

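A set of 207 genes of Spirodela polyrhiza, the giant duckweed, had its lowest transcript level at the middle of the study's temperatures and a higher level on either side of it. The set makes up 1.14% of the 18099 genes in the deposited table. RNA was sequenced from samples labelled as leaf. The 12 libraries fall into 3 groups of 4, labelled indoor temperature, which is the control, middle temperature and high temperature. The labels name no genotype, strain or treatment beyond the temperature, which stands in the genotype field. The sources used here give neither degrees nor exposure times. The series title places the study in high-temperature stress and concerns the aquaporin family. The files give gene identifiers without names and no annotation was used here, so neither aquaporins nor the leaf label could be looked at through known genes, and no function is given to any gene below.

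The genes were chosen by measured values, in all 12 libraries, so the dip itself is a description and no finding. FPKM, a fragment count scaled by transcript length and library size, was divided in each library by a median and multiplied by 15. The median was that of the 12316 genes whose FPKM was 1 or more in every library. The result is called scaled FPKM here. After adding 0.5, the mean of the middle group had to be at most 0.5 times that of the indoor group, and the mean of the high group at least 2 times that of the middle group. At least 1 group mean had to reach 5. The 100 genes with the highest mean FPKM at indoor temperature were left out, and 8 of these would otherwise have qualified. By the smaller of the indoor-to-middle and high-to-middle ratios, the 3 genes nearest inside the limit had 2.003, 2.01 and 2.02, and the 3 nearest outside had 1.9996, 1.998 and 1.996.

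Duckweeds are small floating plants whose body is a frond, a reduced leaf-like structure that buds off daughter fronds. In plants, heat severe enough to unfold proteins activates heat shock transcription factors, which switch on chaperone genes, while many genes of growth and metabolism decline. Milder warmth acts, in Arabidopsis, largely through light and growth signalling and brings out a different set of genes. A transcript level therefore need not move in 1 direction as temperature increases.

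All libraries had 23655239 to 32711880 estimated counts. The 10 most abundant genes took 4.51% to 5.39% of the counts in the indoor, 3.75% to 4.61% in the middle and 15.3% to 19.8% in the high libraries. The median FPKM used for scaling was 21.5 to 22.8 in the indoor, 22.4 to 26.0 in the middle and 12.1 to 14.8 in the high libraries. The scaling therefore raises the high libraries relative to the others, and each level below depends on it. Fewer cells of a type and less RNA per cell cannot be told apart in such bulk samples.

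The 207 genes were mostly well expressed. The median over the genes of the group mean was 52.2 scaled FPKM in the indoor group, 15.1 in the middle group and 41.5 in the high group, while that over all 15209 genes tested was 10.7, 10.9 and 10.5. All 207 genes were among those tested, the genes that reached an FPKM of 1 in 4 or more libraries. The rule asked for at least 1 group mean of 5, so the higher level is partly set by the choice. The dip ran from shallow to deep. The middle level was 0.0691 to 0.499 times the indoor level, with a median of 0.317, and the high level was 2.01 to 18.5 times the middle level, with a median of 2.51. The lowest ratio of middle to indoor, in Spipo10G0040800.v2, rested on indoor replicate 1, at 124.5 scaled FPKM. Without that library its indoor mean was 1.304, below its middle mean of 1.75, and edgeR did not call it between middle and indoor temperature (Benjamini-Hochberg adjusted p of 0.117). The middle level was lower than both others by 3-fold or more in 33 genes and by 4-fold or more in 11.

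**Figure D1:**
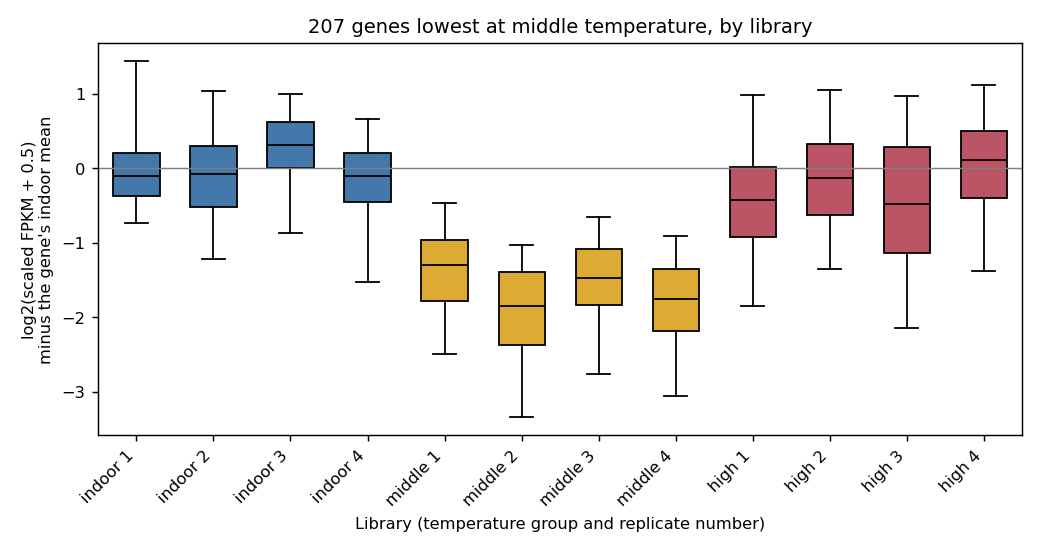
Each box shows the 207 genes in 1 library (box, quartiles; line, median; whiskers, 5th to 95th percentile), as log2(scaled FPKM + 0.5) minus the gene's mean of that value over the 4 indoor libraries. The medians of the middle libraries lie between -1.84 and -1.29, and those of the high libraries between -0.48 and 0.11.

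The libraries did not always separate as cleanly as the means. In 125 of the 207 genes (60.4%) each of the 4 middle libraries lay below all 8 others in scaled FPKM, which was the case for 5.38% of all genes tested. Among these 125 genes the ratio of middle to indoor was 0.0936 to 0.496, with a median of 0.327. The middle libraries lay below all indoor libraries in 166 genes, against 17.2% of all genes tested, and the high libraries lay above all middle libraries in 149, against 15.9%. In edgeR's quasi-likelihood fit, with p-values adjusted by Benjamini-Hochberg over all genes, 191 of the genes were called lower in the middle than in the indoor group, where 17.7% of all genes were. In the high group 173 were called higher than in the middle group, where 15.9% of all genes were. With library totals in place of TMM scaling, 62 of the 207 were called higher in the high than in the middle group. Over all 15209 genes tested, 505 were called higher with library totals and 2417 with TMM scaling. The rule used both comparisons, so these counts describe the choice of genes.

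A single library carried the mean in some genes, as it held over 50% of the sum over the 4 libraries of a group. At high temperature this was so for 14 genes (6.76%, against 3.95% of all genes tested), in replicates 2 and 3 for 6 genes each and in replicate 1 for 2. At indoor temperature it was so for 17 genes (8.21%, against 3.98% of all genes tested), and for 12 of them the library was indoor replicate 1. In the middle group it was so for 9 genes (4.35%, against 1.65% of all genes tested), in replicate 1 for 6 of them. Spipo11G0032400.v2 had 15.1, 0, 0 and 17.5 scaled FPKM in the middle libraries, against 17.4 to 25.6 in the indoor libraries. A further 221 genes were chosen by the same rule with both ratios turned round, and so were highest at middle temperature. They had such a library in 18 genes (8.14%) at high, in 25 (11.3%) at indoor and in 7 (3.17%) at middle temperature.

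The 2 deepest dips with clear separation were those of Spipo15G0019800.v2 and Spipo19G0027500.v2, ranked by the smaller of the 2 ratios. Spipo15G0019800.v2 was a gene of low level. Its scaled FPKM was 6.14, 25.7, 3.69 and 3.89 in the indoor libraries, 1.28, 0.846, 0.817 and 1.42 in the middle libraries, and 18.2, 3.67, 22.6 and 6.16 in the high libraries (replicates 1 to 4). No middle library overlapped another group, but the indoor and high libraries each ranged widely and overlapped one another. Spipo19G0027500.v2 had scaled FPKM of 43.5, 65.0, 117.9 and 119.4 in the indoor, 13.7, 6.67, 14.4 and 9.06 in the middle, and 62.6, 67.1, 42.1 and 67.9 in the high libraries. Its middle mean was 0.132 times the indoor mean and its high mean 5.28 times the middle mean, after adding 0.5. Neither gene was called between high and indoor temperature, with log2 fold changes of 0.36 ± 0.66 and -0.54 ± 0.32 (SE) and adjusted p-values of 0.714 and 0.217 (edgeR, Benjamini-Hochberg). With library totals in place of TMM scaling Spipo19G0027500.v2 was called lower, at a log2 fold change of -1.23. For Spipo15G0019800.v2 the sign was not stable: the log2 fold change was 1.47 without indoor replicate 2, with an adjusted p of 0.0643, and -0.10 without high replicate 3 (edgeR, Benjamini-Hochberg).

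The genes of highest mean level over all libraries were Spipo1G0060300.v2 and Spipo4G0088400.v2. Spipo1G0060300.v2 had scaled FPKM of 137.8, 122.1, 267.8 and 291.8 in the indoor, 80.0, 68.4, 66.2 and 66.7 in the middle, and 1209, 784, 1763 and 1473 in the high libraries. It dipped to 70.3 ± 6.49 at middle temperature (SD, n = 4) and reached the largest high-to-middle ratio of the set, 18.5. Spipo4G0088400.v2 had 349, 717, 515 and 519.7 in the indoor, 212, 140.4, 304 and 154 in the middle, and 331, 653, 284 and 954 in the high libraries. Here middle replicate 3 overlapped the high libraries, and high replicates 2 and 4 lay above replicates 1 and 3.

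**Figure D2:**
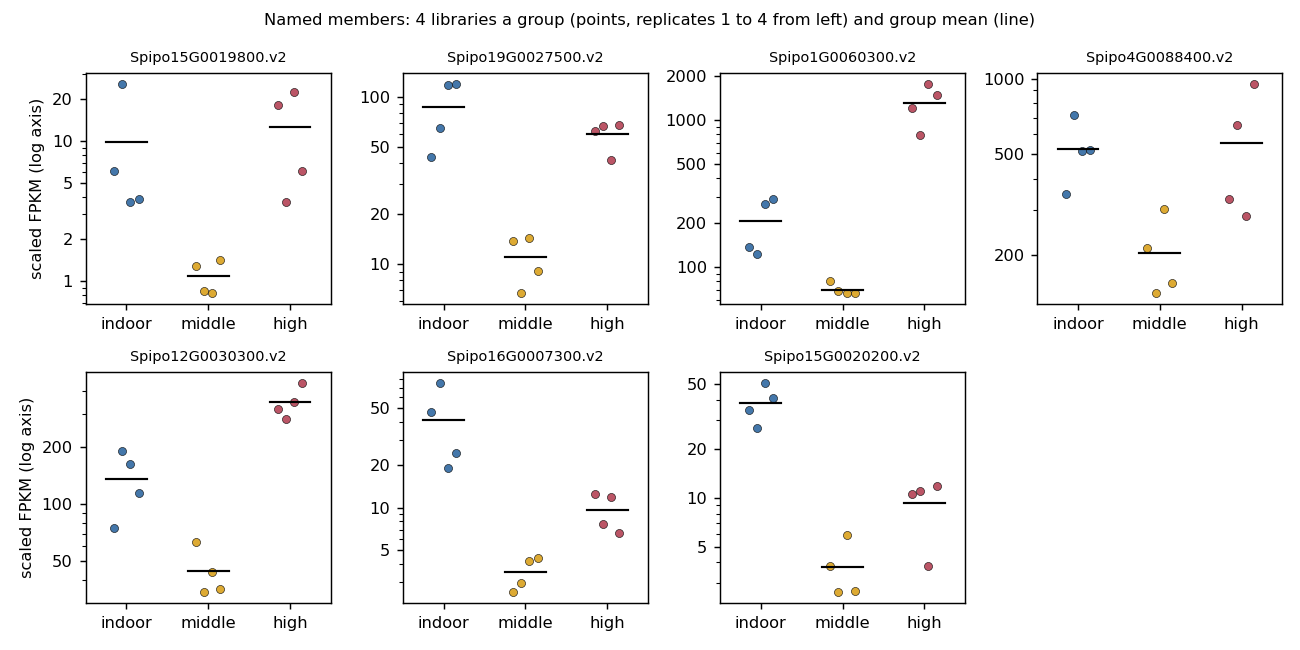
Scaled FPKM (log axis) of the 7 genes named by rule, in 4 libraries a group (points, replicates 1 to 4 from left) with the group mean (line), in the order indoor, middle and high. The middle mean is the lowest in each panel, and middle libraries overlap the high libraries in Spipo4G0088400.v2 and Spipo15G0020200.v2.

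The rule set no limit on the ratio of high to indoor temperature itself, but its 2 limits restrict that ratio and the libraries of both groups entered it. The genes differed in how far the high group returned. The high mean was within 1.5-fold of the indoor mean in 127 genes (61.4%), at most 1/1.5 of it in 64, and at least 1.5 times it in 16. The rule restricts these classes. The lower class was open only to genes with a deep enough fall, the upper only to genes with a large enough high-to-middle ratio. The same shares over all genes were not counted. The median ratio of high to indoor was 0.843. The share of the fall between indoor and middle temperature that was made up at high temperature had a median of 77.4% and quartiles of 48.1% and 106%. This share has a floor, since the high mean had to be at least 2 times the middle mean. A gene at the limit of 0.5 for middle over indoor passed only if it made up its whole fall. The share is therefore partly set by the choice of genes. A high mean of at most 0.5 times the indoor mean was found in 26 genes. The 2-fold limit allows this only where the indoor mean was at least 4 times the middle mean, which was the case in 60 genes. A high mean of at least 2 times the indoor mean was found in 4 genes. The limit of 0.5 for middle over indoor allows this only where the high mean was at least 4 times the middle mean, as in 24 genes.

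Between high and indoor temperature few of these genes were called. edgeR with TMM scaling called 6 of 207 higher at high temperature, where 17.1% of all genes were, and 20 lower, where 15.8% of all genes were. The median log2 fold change was -0.27 over the 207 genes and -0.04 over all genes tested. The set and all genes are not alike in this comparison. The rule allows a 2-fold difference only in genes with a 4-fold ratio at 1 of its steps. The set also spread more within groups, with a median standard deviation of log2(scaled FPKM + 0.5) of 0.55 indoor and 0.53 at high temperature. Over all genes tested it was 0.28 and 0.31. How far this bears on the counts was not tested. High and indoor libraries were apart in scaled FPKM, with high above indoor in 5 genes and high below indoor in 16, against 16.3% and 14.0% of all genes tested. The counts rest on the scaling: with library totals, 2 of the genes were called higher and 128 lower. Over all 15209 genes tested that setting called 1170 higher and 8699 lower, so a call of lower was common to most genes. Without indoor replicate 3 the test called 11 higher, against 2495 over all genes tested. Without high replicate 4 it called 31 lower, against 1979 over all genes tested.

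The genes called lower at high temperature with the largest differences were Spipo16G0007300.v2 and Spipo15G0020200.v2. Spipo16G0007300.v2 had scaled FPKM of 47.5, 75.8, 19.1 and 24.4 in the indoor, 2.53, 2.97, 4.203 and 4.402 in the middle, and 12.4, 7.66, 11.8 and 6.62 in the high libraries. All 12 libraries fell into 3 separate ranges. The difference between high and indoor temperature was a log2 fold change of -2.12 ± 0.40 (SE), with a Benjamini-Hochberg adjusted p of 0.00130 by edgeR. Spipo15G0020200.v2 averaged 9.30 ± 3.71 at high temperature and 38.4 ± 10.2 at indoor temperature (SD, n = 4), a log2 fold change of -2.06 ± 0.35 (SE) with an adjusted p of 0.000632 in the same test. Its middle mean was 3.75 ± 1.55, and high replicate 3, at 3.79, lay within the range of the middle libraries.

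The genes called higher with the largest differences were Spipo1G0060300.v2 and Spipo12G0030300.v2. Spipo1G0060300.v2 averaged 1307 ± 416 at high temperature and 204.9 ± 87.3 at indoor temperature, a log2 fold change of 2.67 ± 0.32 (SE) with an adjusted p of 2.7e-05 (edgeR, Benjamini-Hochberg). Spipo12G0030300.v2 had 319.6, 281, 346 and 440 scaled FPKM in the high libraries, against 75.5, 191, 162.6 and 114 in the indoor libraries. The groups did not overlap, and the middle libraries, at 63.5, 34.2, 44.0 and 35.6, lay below both. High over indoor gave a log2 fold change of 1.34 ± 0.28 (SE), with an adjusted p of 0.00241 (edgeR, Benjamini-Hochberg). With library totals these 2 genes stayed called, at log2 fold changes of 1.96 and 0.64, and the 2 called lower were at -2.79 and -2.74. These 4 genes were named as the extremes of this comparison, so their size is no independent result.

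**Figure D3:**
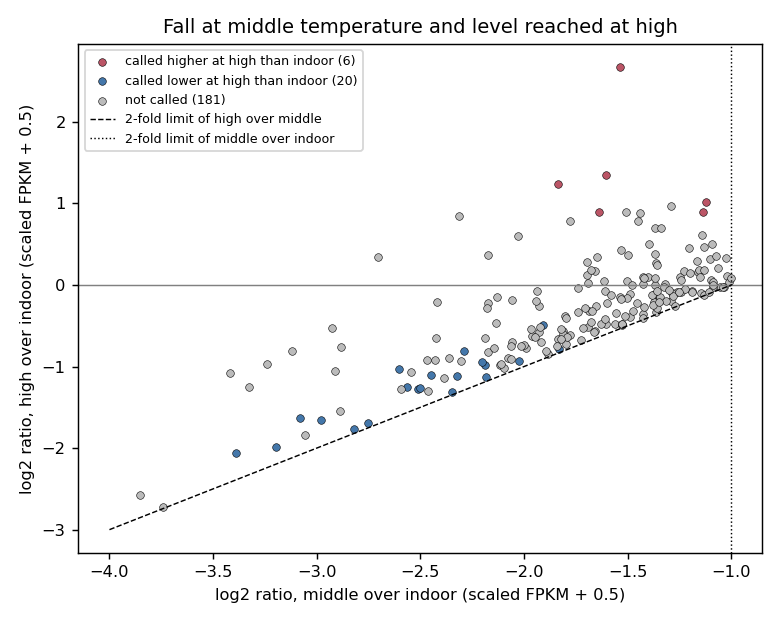
Each point is 1 of the 207 genes, by the log2 ratio of middle over indoor (horizontal) and of high over indoor (vertical) of the group means of scaled FPKM + 0.5; colours give edgeR's call between high and indoor temperature. The 6 genes called higher lie above the zero line and the 20 called lower lie below it, and the dashed line is the 2-fold limit that the rule sets.

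As shares of all counts the genes did not return to their indoor level, but lower shares at high temperature were common over all genes. With library totals, 8699 of all 15209 genes tested were called lower at high than at indoor temperature. The median FPKM used for scaling was 12.1 to 14.8 in the high and 21.5 to 22.8 in the indoor libraries. The 207 genes held 4.19% ± 0.48 of the counts in the indoor group, 1.42% ± 0.18 in the middle group and 2.28% ± 0.33 in the high group (SD, n = 4). The ranges were 3.79% to 4.89%, 1.25% to 1.59% and 1.94% to 2.58% in that order, so that the high libraries lay between the others without overlap. In deposited FPKM, without the scaling, the high mean was above the middle mean in all 207 genes, but at least 2 times it in only 39. The middle mean was at most 0.5 times the indoor mean in 197, and the high mean exceeded the indoor mean in 14, against 60 by the ratio used in the rule. When the rule was applied to deposited FPKM, 40 genes passed it, of which 38 belong to the 207.

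The genes varied between libraries of a group more than most genes did. The median standard deviation of log2(scaled FPKM + 0.5) among the 4 libraries was 0.55 in the indoor, 0.40 in the middle and 0.53 in the high group. Over all genes tested it was 0.28, 0.25 and 0.31, and over the 6459 genes with a mean level between the quartiles of the set it was 0.23, 0.20 and 0.26. At indoor temperature 177 of the 207 genes (85.5%) lay above the median of all genes. The 221 genes highest at middle temperature had medians of 0.44, 0.35 and 0.45. The rule asked nothing of the spread, but it used the same libraries, and the differences were not tested.

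These deviations were shared among the genes. Indoor replicate 3 was above the indoor mean of log2 values in 156 of the 207 genes (75.4%, against 49.7% of all genes tested), with a median deviation of 0.31. Among the middle libraries, replicate 1 was above the mean in 172 genes and replicate 3 in 153, while replicate 2 was above it in only 39 and replicate 4 in 62. Among the high libraries, replicate 4 was above the mean in 165 genes and replicate 2 in 123, against 69 for replicate 1 and 64 for replicate 3. Over all genes tested these shares were 44.8% to 54.4% in every library. The scaling moves such deviations: with deposited FPKM the median deviation was 0.27 for indoor replicate 3, 0.14 for middle replicate 1, 0.19 for high replicate 2 and 0.11 for high replicate 4. By the median, the 221 genes of the opposite course deviated the other way in every library except middle replicate 3 and high replicates 2 and 3. Their median was 0.26 in high replicate 1, -0.25 in indoor replicate 3 and -0.19 in high replicate 4. In middle replicates 1 and 2 it was -0.12 and 0.15. The 221 genes deviated the same way as the 207 genes in high replicate 3, with -0.11 against -0.27. They did so slightly in high replicate 2 and middle replicate 3, with 0.05 and 0.02 against 0.12 and 0.15. Both sets of genes were chosen by the means of these same libraries, so their deviations are not independent of the choice. What these deviations go with was not tested.

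**Figure D4:**
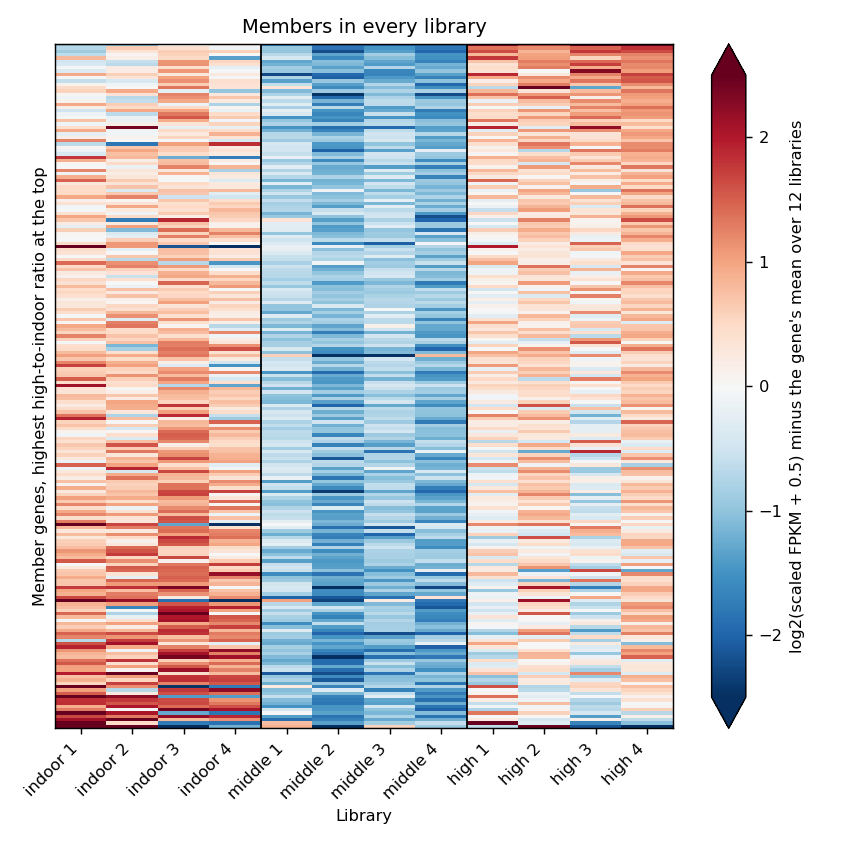
The 207 genes (rows, highest ratio of high to indoor at the top) in the 12 libraries (columns), as log2(scaled FPKM + 0.5) minus the gene's mean over all libraries; the colour scale ends at -2.5 and 2.5. The middle columns are blue in nearly all rows, and the high columns pass from red at the top to near white at the bottom, where the indoor columns are darkest red.

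Some of the genes stood next to one another. The identifiers carry a unit number and a gene number that increases along the unit, and genes are called neighbours here when no other gene of the table lies between them in that order. A neighbour in the set was found for 29 of the 207 genes (14.0%), whereas 373 of the 17892 other genes (2.08%) had one. The rule used no position, but neighbouring genes that share reads would not be independent, and no test was run. With at most 1 other gene between consecutive members, 4 runs held 3 or more members, 16 genes in all. The runs were singled out after their values were seen.

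The run on unit Spipo4, between Spipo4G0091600.v2 and Spipo4G0092500.v2, held 6 members among 9 genes. Its summed scaled FPKM was 545, 481, 1567 and 1016 in the indoor libraries, 297, 311, 283.5 and 262 in the middle libraries, and 975, 1547, 1889.8 and 1657 in the high libraries. The middle libraries were close together and lay below every indoor and high library, and indoor replicates 3 and 4 lay within the range of the high libraries. The 3 genes between the members also had their lowest mean in the middle group, without passing the limits. The most abundant of them, Spipo4G0091700.v2, averaged 1198 in the indoor, 671 in the middle and 1782 in the high libraries. In the 6 members the high mean was 1.21 to 1.86 times the indoor mean, and 1 of them was called higher by edgeR. Spipo4G0091700.v2 and the members Spipo4G0091800.v2 and Spipo4G0092500.v2 had nearly the same relative length, 1.134 times that of the median gene. This length is taken from the ratio of count to FPKM. Whether these genes are near-identical copies among which the counting divided reads is not known, so their separate levels are uncertain.

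The run on unit Spipo12 held 4 of the 5 genes between Spipo12G0029900.v2 and Spipo12G0030300.v2. Its summed scaled FPKM was 190.3, 389, 452 and 294 in the indoor, 148, 64.4, 104 and 68.4 in the middle, and 689, 569, 704 and 786 in the high libraries. The 3 groups did not overlap. The 4 genes had high-to-middle ratios of 3.90 to 8.40 and 2 of them were called higher at high than at indoor temperature. All 5 genes had nearly the same relative length, 0.414 to 0.432 of the median gene, taken from the ratio of count to FPKM. Whether they are near-identical copies among which the counting divided reads is not known, so their separate levels are uncertain.

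The summed levels of the remaining runs came back to the indoor level. The run of 3 neighbours on unit Spipo14, between Spipo14G0034100.v2 and Spipo14G0034300.v2, summed to 75.2 ± 26.3 in the indoor, 28.7 ± 8.56 in the middle and 77.1 ± 31.1 scaled FPKM in the high libraries (SD, n = 4). The run on unit Spipo22 held 3 of the 4 genes between Spipo22G0006000.v2 and Spipo22G0006300.v2, and these 3 summed to 413 ± 188, 109.9 ± 39.6 and 392 ± 170 in the same order. The gene between them that is no member, Spipo22G0006200.v2, averaged 5.21 in the indoor, 1.60 in the middle and 2.02 in the high libraries and so stayed low. In both runs indoor replicate 3 was the highest indoor library and high replicates 2 and 4 were above replicates 1 and 3. None of the 6 members was called between high and indoor temperature, with log2 fold changes from -0.34 to 0.30.

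**Figure D5:**
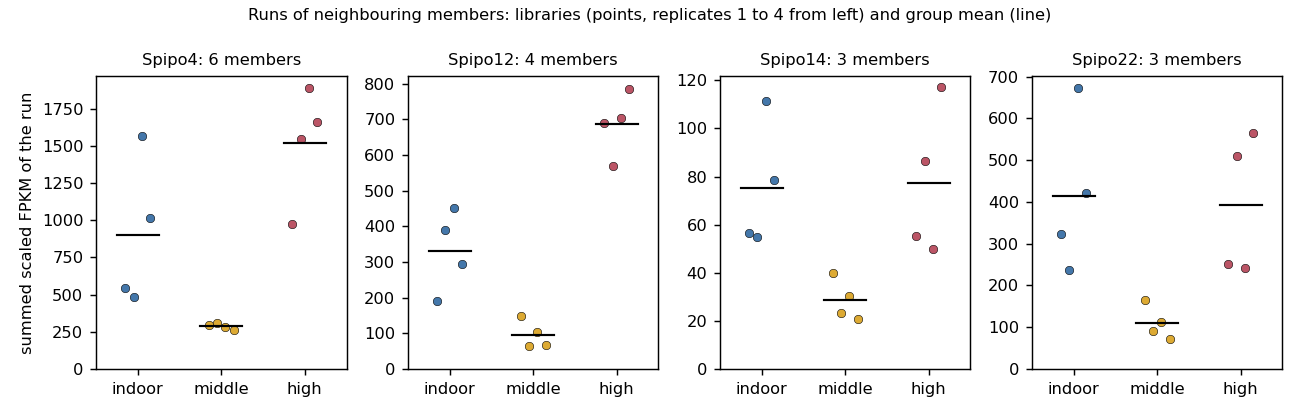
Summed scaled FPKM of the members of each run of neighbouring genes, in 4 libraries a group (points, replicates 1 to 4 from left) with the group mean (line), on axes that start at 0. The high libraries of the Spipo12 run lie above all its indoor libraries, while those of the Spipo14 and Spipo22 runs spread over the same range as indoor.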

How the data were processed

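Poly(A) RNA of 12 libraries was sequenced as read pairs with unique molecular identifiers, per the labels' protocols. The tools in the submitters' processing notes, given without roles, include StringTie 1.3.4d, HISAT2 2.0.4 and cutadapt 1.9. Build, annotation and strand setting are not stated there, so overlapping genes and near-identical copies are uncertain. The deposited FPKM values were scaled as described above. The deposited estimated counts were already whole. In all 18099 genes they were proportional to FPKM after rounding up, within a tolerance of 0.05%. They entered 1 fit of 3 groups by the robust quasi-likelihood method of edgeR 4.0.16, run under R 4.3.3 with TMM library factors, with Benjamini-Hochberg adjustment over 15209 genes and calls at an adjusted p under 0.05. The 2890 genes that reached an FPKM of 1 in fewer than 4 libraries were left out. The script was tested on simulated data. Alternatives used DESeq2 1.42.0 and limma 3.58.1. Standard errors are the size of the log2 fold change divided by the square root of F. The biological coefficient of variation, common to all genes, was 30.1%.

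With no names, the genes named were the 2 of deepest dip whose middle libraries lay below all others, the 2 of highest mean level, and the 2 largest and 2 smallest high-to-indoor fold changes among those called, 7 genes in all. The members, lists and tests were chosen with earlier results of these data known. No replicate libraries were identical. Nothing says that libraries came from separate cultures, so p-values reflect only the scatter of these 12 libraries and may be technical.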

Additional observations from a re-analysis of the deposited data

Results flagged for a closer look

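In 27 sets of 4 libraries (the 7 named genes and 2 summaries of the 207 genes, in each group), 3 held a library that stood apart by Dixon's test, its gap to the nearest other library being too large a part of the range (95% critical value). Chance alone marks about 1 in 20 sets. Indoor replicate 2 of Spipo15G0019800.v2 was at 25.7 scaled FPKM, against 3.69 to 6.14 in the other indoor libraries. Middle replicate 1 of Spipo1G0060300.v2 was at 80.0, against 66.2 to 68.4 in the other middle libraries. High replicate 3 of Spipo15G0020200.v2 was at 3.79, against 10.6 to 11.9 in the other high libraries.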

How the results depend on the processing

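The membership depended most on the scaling and the fold limit: 40 genes passed with deposited FPKM, 842 with 1.5-fold and 33 with 3-fold limits. Without 1 library at a time the rule kept 186 to 266 genes, and 99 of the 207 passed in all 12 of these. With library totals, and in brackets with limma on log2(deposited FPKM + 1), the members called between high and indoor temperature were 2 (2) higher and 128 (127) lower, and 62 (62) were higher at high than at middle temperature. Over all genes these settings called 1170 (1178) higher and 8699 (8772) lower in the high than in the indoor group, and 505 (536) higher at high than at middle temperature. DESeq2 called 10 members, and 2972 of all genes, higher at high than at indoor temperature. Leaving out a library gave 5 to 11 members higher and 15 to 31 lower there, and 2301 to 2554 higher and 1979 to 2349 lower over all genes. The cause was not tested. The other counts of calls stayed within 1.5 times those reported, and 145 of 147 values of named genes stayed on their side of the threshold.

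Same-numbered libraries of different groups correlated at -0.28 to 0.277 in their deviations, above 0.1 in 3 of 12 pairs, so the numbers were not taken as pairs. With the replicate block edgeR called 9 members higher and 18 lower in the high than in the indoor group, 181 lower at middle than at indoor and 160 higher at high than at middle temperature. Over all genes, high against indoor, the block called 2424 higher and 2148 lower. It called 2316 of all genes lower at middle than at indoor and 2038 higher at high than at middle temperature.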

Other observations

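The 207 genes lay on 32 of the 33 units in the identifiers. Unit Spipo16 held 14 of them among 532 genes (2.63%), unit Spipo0 14 among 1681 (0.833%), and unit Spipo31 0 among 126. Their relative length, with the median of all genes tested set to 1, had quartiles of 0.580 and 1.40, against 0.586 and 1.54 over all genes tested. The shares were not tested.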
